A study of Homo sapiens with 18 samples.

Results

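The genes described here are 6 neuronal calcium sensors, HPCA, HPCAL1, HPCAL4, NCALD, VSNL1 and NCS1, taken by symbol from the 61541 genes listed in each of 2 tables of RNA-seq read counts, and all 6 were found in both. HPCAL4 was chosen from its high ratio of reads at 3 days, and the other 5 as its relatives. Its values at 3 and 12 days are therefore a description with no test, and counts of genes past a threshold in those libraries are over the other 5. The libraries were made from A549, a human lung adenocarcinoma line of epithelial origin and WT genotype, with or without sodium propionate (SP), the salt of a short-chain fatty acid, at 5 mM. The first table holds untreated control cells at 3 days and SP cells at 3 and 12 days, the second holds untreated control cells at 24 hours and SP cells at 3 and 24 hours, and each group has 3 libraries. SP at 3 hours was compared with the 24-hour control and SP at 12 days with the 3-day control, so in these comparisons SP and time in culture cannot be told apart. Comparisons within a table share their control libraries and are not independent. All libraries are of 1 cell line, and the labels do not say that replicates were separate cultures, so p-values measure the spread between these libraries.

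Neuronal calcium sensors are small calcium-binding proteins with EF-hand motifs, best known from neurons and the retina, where they couple changes in intracellular calcium to channels, kinases and lipid enzymes. Many carry a myristoyl group at the N-terminus that can be exposed when calcium binds, so that the protein moves to a membrane. NCS1 and HPCAL1 are also made outside the nervous system, whereas HPCA (hippocalcin) and HPCAL4 are mainly known from brain.

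The libraries held 14187401 to 43765330 counted reads. Between 0.93% and 5.19% of tested genes in the first table, and 0.96% to 10.57% in the second, lay over 2-fold from the mean of the other 2 libraries of the group. The highest of these shares were in SP 12 days replicate 3 and in Control 24 hours replicate 3. Of 10 markers set for A549, 9 were tested in both tables, and CDKN2A, which the line has lost, had no reads in all 18 libraries. Levels below are CPM (counts scaled to library size with edgeR's TMM factors) or, between genes, RPKM (CPM per kilobase of exon). A gene passed at an adjusted p under 0.05 in edgeR's quasi-likelihood test (Benjamini-Hochberg over all tested genes), or under 0.0001 with at least 2-fold at the stricter threshold.

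HPCAL4 (ENSG00000116983) lies on the minus strand of chromosome 1 at 39678648 to 39691485, and HPCA (ENSG00000121905) on the plus strand of chromosome 1 at 32885994 to 32898441 (GRCh38). Both promoters are shown because these were the 2 members that rose at 24 hours. Each sequence is a window (GRCh38.p14) from 250 bases before to 50 after a start site annotated in RefSeq. These start sites differ from the outer ends of the gene positions given above. The windows are read 5′ to 3′ on the strand of the gene, with matches to the searched motifs in capitals.
HPCAL4, chr1:39691384-39691683, minus strand: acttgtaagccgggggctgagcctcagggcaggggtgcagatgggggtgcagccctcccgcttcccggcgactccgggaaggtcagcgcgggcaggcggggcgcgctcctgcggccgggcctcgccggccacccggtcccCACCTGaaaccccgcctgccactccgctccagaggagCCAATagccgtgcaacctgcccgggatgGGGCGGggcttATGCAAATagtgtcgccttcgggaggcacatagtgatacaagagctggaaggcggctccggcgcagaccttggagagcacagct
HPCA, chr1:32886241-32886540, plus strand: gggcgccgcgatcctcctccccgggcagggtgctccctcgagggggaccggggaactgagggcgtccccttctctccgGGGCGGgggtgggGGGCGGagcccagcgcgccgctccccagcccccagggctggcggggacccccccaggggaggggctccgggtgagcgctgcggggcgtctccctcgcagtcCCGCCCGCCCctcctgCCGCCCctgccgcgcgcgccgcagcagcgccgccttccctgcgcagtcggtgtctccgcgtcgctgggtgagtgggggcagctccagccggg
Motifs were searched on both strands as the GC box GGGCGG, the CCAAT box, the TATA box TATAAA, the octamer ATGCAAAT, the cAMP response element TGACGTCA, the AP-1 motif TGACTCA and the E-box CACCTG. The HPCAL4 window held 1 match each to CACCTG at −110, CCAAT at −73, GGGCGG at −45 and ATGCAAAT at −34, counted from the start site. Over all 34943 RefSeq windows of this length, 20.6% held CACCTG, 34.65% CCAAT, 44.87% GGGCGG and 1.77% the octamer. The HPCA window held 5 matches to GGGCGG, 2 of which overlap, and none to the other motifs. The TATA box, the cAMP response element and the AP-1 motif, held by 11.57%, 1.84% and 4.96% of windows, are not in either window. HPCAL4 has 25 CpG and 69.3% G or C in its window and HPCA 35 CpG and 80.3%, against medians of 14 and 58.7% over all windows. Of all windows, 68.1% held fewer CpG than that of HPCAL4 and 85.9% fewer than that of HPCA. This is not particular to these 2 genes. The richest windows of HPCAL1 and NCS1, which did not pass at 24 hours, held 40 and 42 CpG, and their poorest 9 and 8. A match is a run of letters and was not tested as a binding site.

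HPCAL4, a hippocalcin-like sensor, was nearly silent in untreated cells and was read in every SP group. The 24-hour controls held 4, 2 and 4 reads, the SP libraries 9, 39 and 28 reads at 3 hours, and the SP libraries 109, 292 and 138 reads at 24 hours. Every SP library was above every control in CPM, and every 24-hour SP library above every 3-hour one. Mean levels were 0.153 ± 0.0541 CPM in the control, 1.01 ± 0.334 CPM at 3 hours and 5.20 ± 1.16 CPM at 24 hours (SD, n = 3 each). HPCAL4 rose with SP by 2.77 ± 0.41 on the log2 scale at 3 hours (SE, edgeR adjusted p = 0.00335) and by 5.07 ± 0.36 at 24 hours (adjusted p = 3.84e-05). The summed reads gave a ratio of 7.25 (95% counting interval 3.73 to 15.7) at 3 hours and 36.1 (19.5 to 75.7) at 24 hours. By log2 fold change it ranked 88 among rises at 3 hours and 37 at 24 hours, of 17377 genes tested. The rise between 3 and 24 hours of SP was itself 2.30 ± 0.27 (adjusted p = 0.000969). HPCAL4 passed the filter on low counts only through its SP libraries, so entry into the test was not independent of the difference. With no filter the calls held (adjusted p = 1.17e-06 at 3 hours, 1.87e-20 at 24 hours and 4.12e-10 between them).

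In the libraries on which it was chosen, the 3-day controls held 1, 1 and 1 reads of HPCAL4. The SP libraries held 108, 105 and 114 reads at 3 days and 54, 45 and 136 reads at 12 days. No SP library came near a control, and the 12-day libraries were far more spread than the 3-day ones. Levels were 0.0565 ± 0.00775 CPM in the control, 6.60 ± 0.211 CPM at 3 days and 3.90 ± 1.94 CPM at 12 days (SD, n = 3 each). The log2 difference was 6.72 at 3 days and 5.98 at 12 days, from 327 and 235 reads against 3. These give read ratios of 118 (95% counting interval 40.2 to 577) and 72.1 (24.4 to 352). The 12-day mean leans on replicate 3, at 6.03 CPM against 3.41 and 2.25 CPM in the others, and without it the 12-day log2 difference was 5.45. The 12-day libraries were all below the 3-day ones, with a log2 difference of −0.74 in the fit and −1.26 without replicate 3. The 2 controls were set in separate tables and are not compared.

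**Figure D1:**
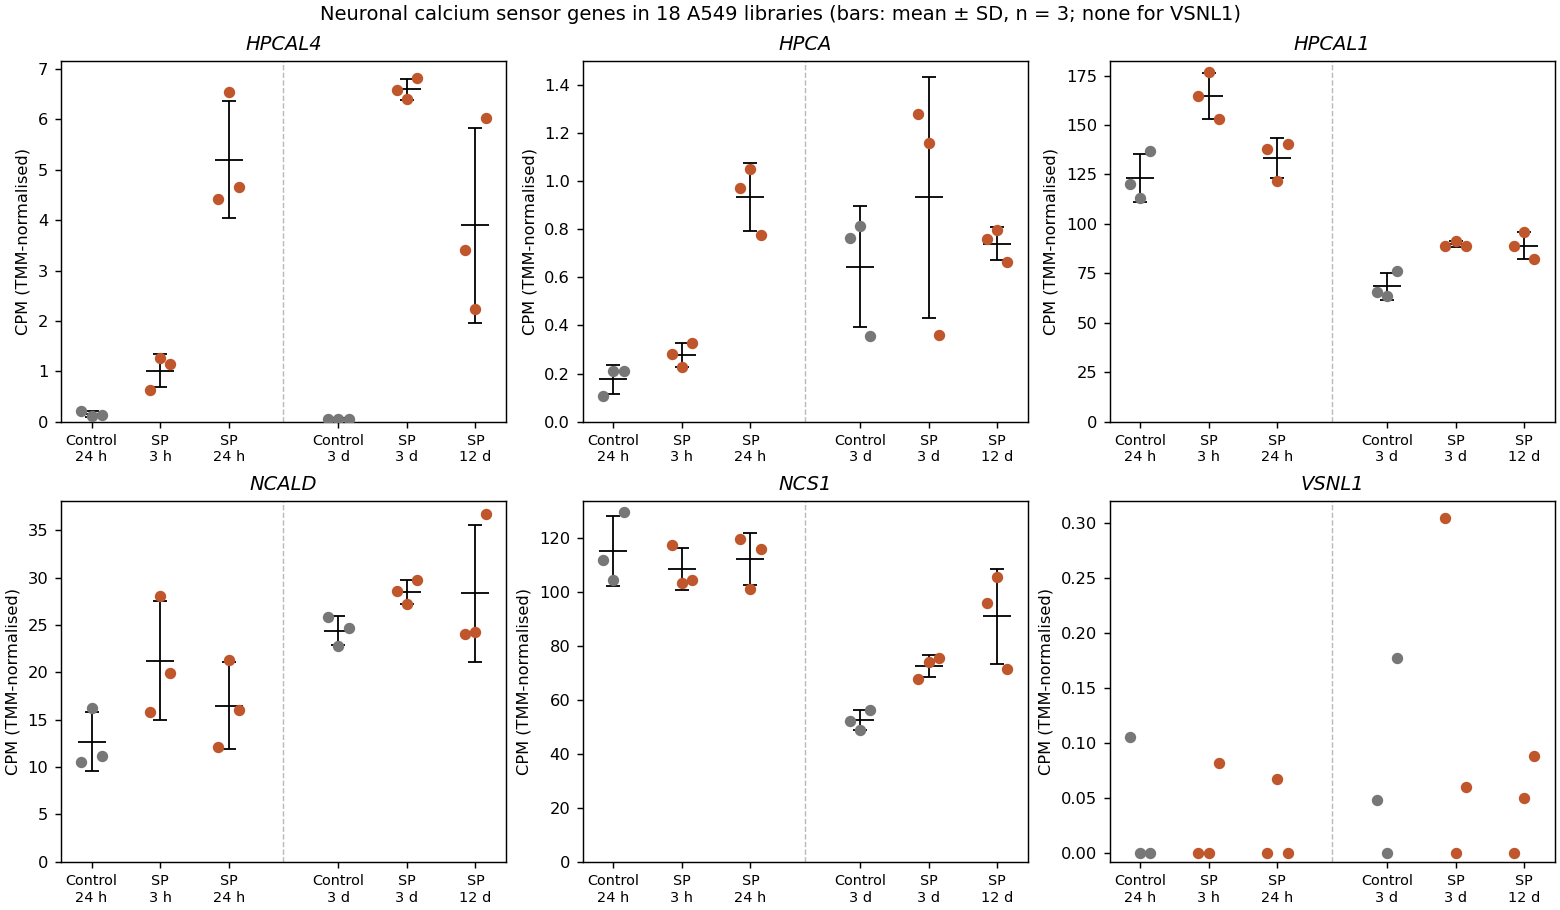
CPM (scaled by TMM factors) of the 6 genes in each of the 18 libraries, control in grey and SP in orange, with mean ± SD (n = 3) as bars except for VSNL1, and a dashed line between the 2 tables. HPCAL4 lies near 0 in both controls and above them in every SP library. HPCA lies above the 24-hour control in every SP library of that table, by most at 24 hours. At 3 hours the HPCA gap rests on few reads and did not pass the test. HPCAL1 and NCS1 change by small steps on a high level.

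HPCA, the founding hippocalcin, was read at low levels in every group and rose at 24 hours. It held 2, 4 and 6 reads in the 24-hour controls, 4, 7 and 8 reads at 3 hours of SP and 24, 47 and 23 reads at 24 hours. In CPM all 24-hour SP libraries, at 0.971, 1.05 and 0.777, were above the controls, at 0.106, 0.211 and 0.210. The rise was 2.35 ± 0.34 on the log2 scale (SE, adjusted p = 0.00108), or 94 reads against 12 (ratio 5.25, 95% counting interval 2.87 to 10.5). At 3 hours the SP libraries, at 0.282, 0.227 and 0.326 CPM, were also all above the controls, with a difference of 0.60 ± 0.41 that did not pass (adjusted p = 0.521), and the change from 3 to 24 hours of SP was 1.75 ± 0.31 (adjusted p = 0.00516). In the second table HPCA passed the low-count filter only through the 24-hour SP libraries, and with no filter both calls held (adjusted p = 0.000159 against the control and 0.00449 against 3 hours).

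At 3 days HPCA was not told apart from the control. The 3-day controls held 16, 13 and 6 reads, the 3-day SP libraries 21, 19 and 6, and the 12-day SP libraries 12, 16 and 15. The groups overlapped at both times. Differences were 0.52 ± 0.43 at 3 days (adjusted p = 0.343) and 0.18 on the log2 scale at 12 days (adjusted p = 0.755). HPCA shares 247 bp of exon with TMEM54 on the opposite strand, and strand use in counting is not stated, so reads of the 2 genes cannot be told apart there. TMEM54 itself, at 32.6 ± 0.396 CPM in the 24-hour control, rose by 0.38 at 24 hours (adjusted p = 0.018) and by 0.48 at 3 days (adjusted p = 0.0015). Its part in the HPCA counts was not tested.

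HPCAL1 (ENSG00000115756, chromosome 2, 10302889 to 10427617, plus strand), a widely expressed hippocalcin-like sensor, had a high level and moved in small steps. It read 65.7, 63.5 and 76.2 CPM in the 3-day controls, 89.0, 91.5 and 88.8 CPM at 3 days of SP and 89.0, 95.9 and 82.1 CPM at 12 days. Neither SP group overlapped the control. HPCAL1 rose by 0.39 ± 0.09 on the log2 scale at 3 days (adjusted p = 0.00168) and by 0.38 ± 0.09 at 12 days (adjusted p = 0.00205). In the second table it read 120.2, 113 and 137 CPM in the controls, 164, 177 and 153 CPM at 3 hours and 138, 122 and 141 CPM at 24 hours. The 3-hour libraries were all above the controls and the 24-hour ones overlapped them. The 3-hour difference was 0.42 ± 0.11 (adjusted p = 0.0376) and that at 24 hours 0.11 ± 0.11 (adjusted p = 0.459). The 3-hour call did not hold without the low-count filter (adjusted p = 0.0692), with only the 2 groups fitted (0.122), or without any 1 of 6 libraries: Control 24 hours replicate 1 (0.123) or 2 (0.123), SP 3 hours replicate 1 (0.102) or 2 (0.155), and SP 24 hours replicate 1 (0.0649) or 3 (0.0662).

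NCS1 (ENSG00000107130, chromosome 9, 130172404 to 130237303, plus strand), a sensor conserved from yeast to humans that regulates a phosphatidylinositol kinase, was high and rose by less than 2-fold in the longer experiment. The 3-day controls read 52.4, 48.8 and 56.4 CPM, the 3-day SP libraries 68.0, 74.0 and 75.7 CPM and the 12-day SP libraries 96.1, 106 and 71.6 CPM. All SP libraries were above all controls. NCS1 rose by 0.47 ± 0.12 at 3 days (adjusted p = 0.00484) and by 0.79 ± 0.12 at 12 days (adjusted p = 6.00e-05). Between 3 and 12 days of SP it differed by 0.33 ± 0.12 (adjusted p = 0.105), a difference that was 0.46 without SP 12 days replicate 3 (adjusted p = 9.13e-05). At 3 and 24 hours the differences were −0.09 ± 0.12 (adjusted p = 0.699) and −0.04 ± 0.12 (adjusted p = 0.808), with groups that overlapped. That the rise at 3 days differs from the value at 24 hours was not tested, since the tables were counted and scaled separately.

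NCALD (ENSG00000104490, chromosome 8, 101686542 to 102124907, minus strand), neurocalcin delta, a membrane-associated sensor, lay in between. It read 10.6, 16.3 and 11.1 CPM in the 24-hour controls, 15.8, 28.1 and 19.9 CPM at 3 hours of SP and 12.1, 21.3 and 16.0 CPM at 24 hours. In each group replicate 2 was the highest, and the groups overlapped. The differences were 0.75 ± 0.27 at 3 hours (adjusted p = 0.116) and 0.39 ± 0.27 at 24 hours (adjusted p = 0.312). With the replicate number as a block, the 24-hour difference was 0.37 (adjusted p = 0.0444). At 3 days it read 25.8, 22.7 and 24.6 CPM in controls and 28.6, 27.2 and 29.7 CPM with SP. Every SP library was above every control there, with a difference of 0.22 ± 0.14 that did not pass (adjusted p = 0.204). At 12 days NCALD read 24.0, 24.3 and 36.7 CPM, and the difference of 0.22 (adjusted p = 0.206) was −0.03 without replicate 3. NCALD shares 361 bp of exon with the lncRNA ENSG00000253629 on the opposite strand, which had no reads in any library.

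VSNL1 (ENSG00000163032, chromosome 2, 17539126 to 17657018, plus strand), visinin-like protein 1, was at the edge of detection and failed the low-count filter in both tables. Single libraries held 0 to 5 reads, and the 3 libraries of a group together 2 to 6 reads. With so few reads no difference was detectable at this depth.

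**Figure D2:**
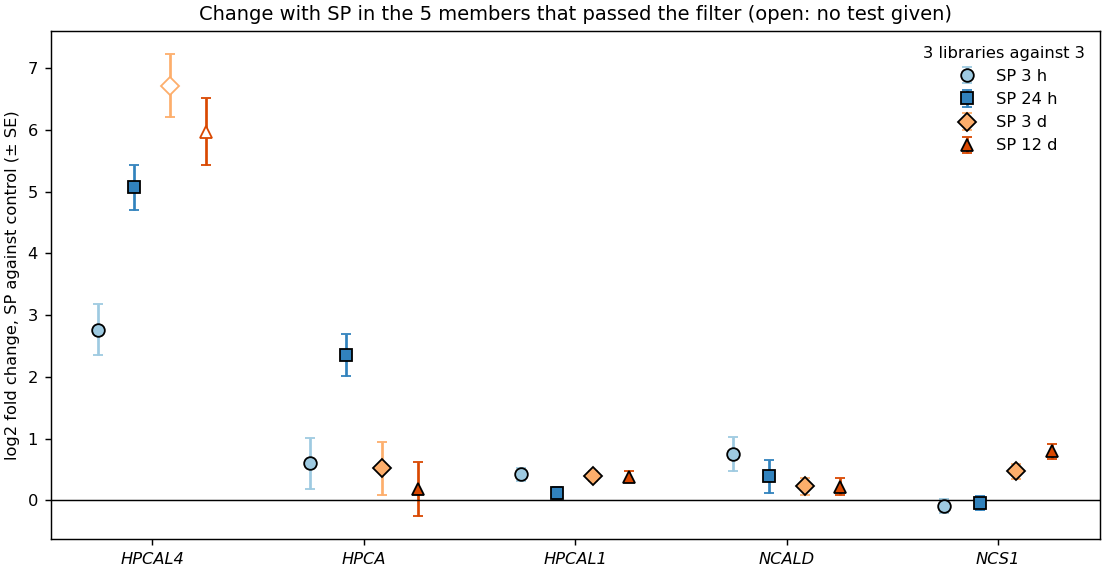
Fitted log2 fold change (± SE) of SP against control for the 5 genes that passed the low-count filter, 3 libraries against 3, with HPCAL4 at 3 and 12 days drawn open because no test is given there. HPCAL4 lies between 2.77 and 6.72, HPCA reaches 2.35 at 24 hours, and the other 3 stay under 1.

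Counted over the genes, 2 of 6 passed at 3 hours (HPCAL4 and HPCAL1, both higher) and 2 of 6 at 24 hours (HPCAL4 and HPCA, both higher). Of all tested genes, 11.5% passed at 3 hours and 28.8% at 24 hours. The calls of HPCAL4 and HPCA are of genes that passed the low-count filter only through SP libraries, so these counts are in part set by the filter. From 3 to 24 hours of SP, 2 of 6 (HPCAL4 and HPCA) were higher, with 20.1% of all genes past the threshold. At 3 days and at 12 days, 2 of the 5 genes other than HPCAL4 passed (HPCAL1 and NCS1, both higher), with backgrounds of 48.6% and 49.8%. Between 12 and 3 days of SP, edgeR called 0 of 5, 1 of them (NCS1) at an unadjusted p under 0.05, and DESeq2 called 0, with a background of 8.1%. These shares are small counts beside backgrounds of the same order, and nothing about the group as a whole is read from them. At the stricter threshold HPCAL4 passed at 24 hours, as 1 of 6, beside 0.685% of all genes (119 genes). With the replicate number as a block 2 genes passed and HPCAL4 did not (adjusted p = 0.000323). No other member passed it in a tested comparison, where the backgrounds were 8.44% at 3 days, 9.11% at 12 days, 0.18% between 12 and 3 days and 0.0288% between 24 and 3 hours. At 3 hours edgeR called 0% of all genes at that threshold, with 4367 genes at an unadjusted p under 0.05, whereas DESeq2 called 415.

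Per kilobase of exon, the order of the levels in the 3-day controls was HPCAL1 at 11.0 ± 1.09 RPKM, NCS1 at 9.62 ± 0.699, NCALD at 3.03 ± 0.193, HPCA at 0.328 ± 0.129 and, at the bottom, VSNL1 at 0.0198 ± 0.0242 and HPCAL4 at 0.0119 ± 0.00163 RPKM (SD, n = 3). HPCAL1 and NCS1 lay within their spread of each other, as did VSNL1 and HPCAL4. With SP at 3 days HPCAL4 reached 1.39 ± 0.0443 RPKM and stood above HPCA, at 0.475 ± 0.255 RPKM, and below NCALD, at 3.55 ± 0.155 RPKM. In the second table the 24-hour controls read NCS1 at 21.1 ± 2.37, HPCAL1 at 19.8 ± 1.94, NCALD at 1.58 ± 0.390, HPCA at 0.0895 ± 0.0309 and HPCAL4 at 0.0321 ± 0.0114 RPKM. With SP at 24 hours HPCAL4 read 1.09 ± 0.244 RPKM against 0.475 ± 0.0720 for HPCA and 2.05 ± 0.576 for NCALD. In bulk RNA, fewer cells that express a gene and less RNA per cell cannot be told apart.

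The other 8 genes of the family set for comparison are recoverin, the guanylate cyclase activators and the potassium channel interacting proteins, of which 3 were tested. KCNIP3, which binds potassium channels and also DNA, held 17 reads in the 3-day controls, 76 reads with SP at 3 days and 98 reads at 12 days. It rose by 2.25 ± 0.33 at 3 days (adjusted p = 4.4e-05) and by 2.37 ± 0.32 at 12 days (adjusted p = 1.9e-05). Its 3-day control mean lay under the minimum of the low-count filter, so KCNIP3 entered the test at least in part through SP libraries. At 24 hours its difference was 0.24 ± 0.49 (adjusted p = 0.73), from 53 reads against 32. GUCA1B and KCNIP2 did not pass in either table, with log2 differences of 0.48 and 0.12 at 3 days. GUCA1C had no reads in any library.

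Of 20 genes set as partners and targets of these sensors, 4 were higher and 3 lower among the 11 tested at 3 days, and 4 were higher and 1 lower among the 10 tested at 24 hours. These 7 of 11 and 5 of 10 stand beside 48.6% and 28.8% of all genes. Their median log2 difference was 0.18 at 3 days and 0.03 at 24 hours, against −0.02 and −0.01 over all genes. CHRNA4, the nicotinic receptor subunit that VSNL1 is known to bind, had no reads in the 3-day controls and 115 reads with SP at 3 days, at least 41.6-fold higher when the controls are set at 3 reads in all. At 24 hours it held 248 reads against 6, a ratio of 27.7 (95% counting interval 12.5 to 76.2). CHRNB2, the usual partner subunit of CHRNA4, fell by 2.17 at 3 days (16 reads against 80, adjusted p = 0.00058) and by 2.04 at 24 hours (30 reads against 84, adjusted p = 0.0021). CHRNA4 could pass the low-count filter only through its SP libraries, so no p is given for it, although it is among the genes counted as higher. CHRNB2 held few reads with SP, so it may have passed the filter mainly through its controls, and its p-values carry that limit. CHRNA4 and CHRNB2 share 518 bp and 321 bp of exon with lncRNAs on the opposite strand. ITPR3, a calcium release channel of the endoplasmic reticulum, rose by 0.61 ± 0.11 at 3 days (adjusted p = 0.0004) and by 0.97 ± 0.24 at 24 hours (adjusted p = 0.017), and shares 1025 bp of exon with UQCC2. ITPR2 rose by 0.50 ± 0.09 at 3 days (adjusted p = 0.0003), and the potassium channel KCND1 by 1.48 ± 0.35 at 24 hours (adjusted p = 0.012).

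Of the 4 enzymes that trim and myristoylate N-termini, 1 was higher and 2 lower at 3 days, and 0 higher and 1 lower at 24 hours. Of all genes, 48.6% and 28.8% passed in these comparisons. At 3 days NMT2 rose by 0.57 ± 0.09 (adjusted p = 0.00013), and METAP1 and METAP2 fell by 0.52 and 0.24 (adjusted p = 0.0013 and 0.026). At 24 hours METAP1 fell by 0.47 ± 0.13 (adjusted p = 0.021), and NMT1 differed by −0.25 (adjusted p = 0.0563, and 0.0435 with the replicate number as a block). The median over the 4 was −0.20 at 3 days and −0.33 at 24 hours, against −0.02 and −0.01 over all genes.

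Of 35 other EF-hand sensors and buffers, among them calmodulins and calbindins, 13 were higher and 3 lower among 20 tested at 3 days, 12 higher and 1 lower at 12 days, and 6 higher and 1 lower among 19 tested at 24 hours. Of all genes, 48.6%, 49.8% and 28.8% passed in either direction in these comparisons, and the lower EF-hand genes at 3 days were 0 without Control 3 days replicate 1 or 2 or SP 3 days replicate 2. The median log2 difference over the list was 0.34 at 3 days, 0.34 at 12 days and 0.18 at 24 hours, beside −0.02, −0.00 and −0.01 over all genes. CABP1, a neuronal calcium sensor related to calmodulin, held 21 reads in the 3-day controls and 244 with SP at 3 days, a rise of 3.64 ± 0.29 (adjusted p = 7.6e-08). It rose by 2.86 ± 0.51 at 24 hours (200 reads against 18, adjusted p = 0.0031). EFHD1, a mitochondrial calcium sensor, rose by 2.11 ± 0.16 at 3 days (adjusted p = 5.1e-08) and by 3.27 ± 0.25 at 24 hours (adjusted p = 4.9e-05). CALB2 (calretinin), a buffer used as a marker of interneurons, went from 5.11 ± 0.421 to 29.4 ± 0.245 CPM at 3 days (log2 difference 2.52, adjusted p = 5.2e-10), while at 24 hours its difference was 0.37 (adjusted p = 0.14, and 0.0327 with the replicate number as a block). CALML6 rose by 1.96 ± 0.53 at 3 days (adjusted p = 0.0061). KCNIP3, CABP1 and CALML6 had control means of 0.323, 0.382 and 0.190 CPM at 3 days, under the filter's minimum of 0.587 CPM, as had CABP1 at 24 hours, at 0.258 against 0.403 CPM. They entered those tests at least in part through SP libraries, so their p-values there carry that limit. At 24 hours CHP1 and TESC, both regulators of sodium-proton exchange, rose by 0.81 ± 0.17 and 0.80 ± 0.14 (adjusted p = 0.0068 and 0.0032).

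**Figure D3:**
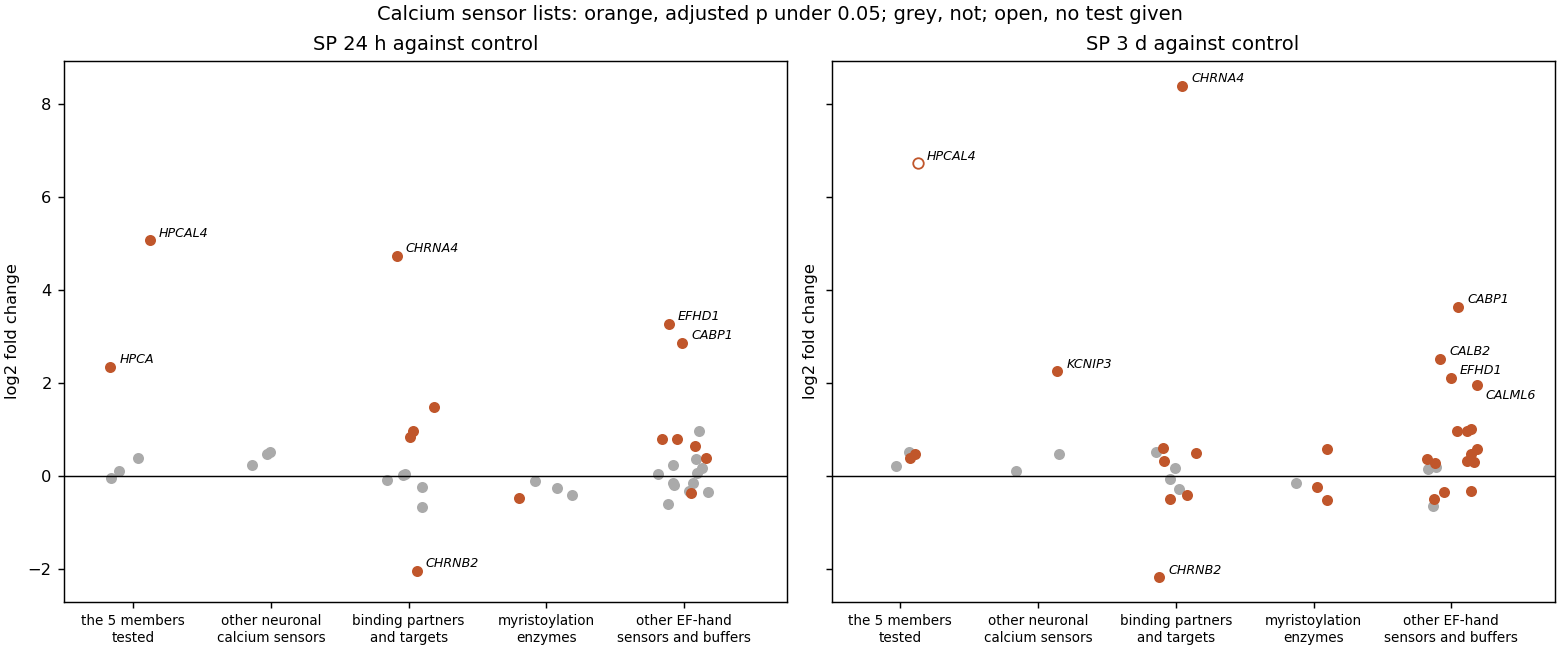
Fitted log2 fold change of SP against control for the tested genes of each list, at 24 hours (left) and 3 days (right), orange where the adjusted p was under 0.05, grey where not, and open for HPCAL4 at 3 days, where no test is given. HPCAL4 and CHRNA4 are the highest points at both times, and the value drawn for CHRNA4 at 3 days is a fitted one against controls without reads.

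Markers of other cell types were read beside these genes. Of 10 neuronal markers, 6 were tested, and their summed level was 222 to 235 CPM in the 3-day controls, 270.4 to 282 CPM with SP at 3 days and 244 to 309.9 CPM at 12 days. In the second table it was 87.1 to 93.8 CPM in the controls, 105 to 106 CPM at 3 hours and 112 to 125 CPM at 24 hours. STMN2 had no reads in any library, and ELAVL4 and GAP43 each had at most 10 reads in all libraries of a table together. MAP2 rose by 2.29 and SYT1 by 0.68 at 3 days, while RBFOX3 fell by 0.62 at 3 days and rose by 1.11 at 24 hours (adjusted p = 5.2e-07, 4.0e-06, 0.015 and 0.0076). MAP2 differed by 0.62 at 24 hours (adjusted p = 0.44).

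Of 5 neuroendocrine markers, 3 were tested, and their sum was 22.6 to 26.3 CPM in the 3-day controls, 49.8 to 51.5 CPM with SP at 3 days and 21.7 to 66.02 CPM at 12 days. It was 4.14 to 6.66 CPM in the 24-hour controls, 4.56 to 5.64 CPM at 3 hours and 7.69 to 11.4 CPM at 24 hours, with INSM1 at 0 in the first table and at no more than 10 reads in the second. Of 5 fibroblast markers, 3 were tested, and their sum was 14.4 to 14.7 CPM in the 3-day controls, 61.5 to 71.5 CPM with SP at 3 days and 34.9 to 60.97 CPM at 12 days. COL1A1, a fibrillar collagen, rose by 2.22 at 3 days and by 2.48 at 24 hours (adjusted p = 2.7e-06 and 0.0041), while COL1A2 had no reads in the first table. The fibroblast sum was 6.51 to 21.8 CPM in the 24-hour controls, 18.9 to 38.7 CPM at 3 hours and 62.4 to 90.0 CPM at 24 hours, with DCN at 0. Of 4 leukocyte markers only CD14 was tested, and the sum was 16.2 to 17.8 CPM in the 3-day controls, 34.3 to 37.4 CPM with SP at 3 days and 13.0 to 26.1 CPM at 12 days. It was 2.95 to 3.91 CPM in the 24-hour controls, 2.32 to 4.37 CPM at 3 hours and 14.2 to 16.6 CPM at 24 hours, with CD3E at 0 throughout. Of the photoreceptor markers only PDE6A was tested, and CRX and SAG each had at most 10 reads in all libraries of a table together. PDE6A passed as higher at 3 and 12 days (log2 difference 1.42 and 1.34) and did not pass at 24 hours (0.67). The list's sum was 0.296 to 0.813 CPM in the 3-day controls and 1.34 to 1.62 CPM with SP at 3 days. At 24 hours the sums overlapped. At such low control levels PDE6A may have entered the test mainly through SP libraries. Sums in the SP libraries of 3 days and 24 hours were thus above the controls for the neuronal, neuroendocrine, fibroblast and leukocyte lists, in the same libraries in which HPCAL4 was high. The genes within a list did not all move together. Of 6 neuronal markers tested at 3 days, 2 were higher and 1 lower, with a median log2 difference of −0.16. At 24 hours 2 were higher and 0 lower, with a median of 0.58. Of 3 neuroendocrine markers, 0 passed at 3 days and 1 at 24 hours. Of all genes, 48.6% and 28.8% passed. The part of these markers in the change of HPCAL4 was not tested.

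The nearest tested genes beside each of the 6 were then read. PPIE, a cyclophilin found in the spliceosome, starts 697 bp from HPCAL4 on the opposite strand and moved the other way. It fell by 0.60 ± 0.09 at 3 days (adjusted p = 5.0e-05), by 0.63 ± 0.09 at 12 days (adjusted p = 2.7e-05) and by 0.59 ± 0.13 at 24 hours (adjusted p = 0.0088), with no overlap between groups. HEYL, a Notch-responsive repressor 39.0 kb away on the other side, differed by 0.19 at 3 days (adjusted p = 0.27) and by 0.71 at 24 hours (adjusted p = 0.049, and 0.0811 with the replicate number as a block). FNDC5, 13.5 kb from HPCA, rose by 1.44 ± 0.42 at 3 days (adjusted p = 0.010) and by 1.37 ± 0.37 at 24 hours (adjusted p = 0.021), and RNF19B, 38.0 kb on the other side, differed by 0.14 and −0.07. Beside HPCAL1, ENSG00000285872 at 404 bp rose by 1.44 at 24 hours (96 reads against 24, adjusted p = 0.017). ENSG00000285872 held few control reads, so it may have passed the low-count filter mainly through SP libraries, and its p-value carries that limit. On the other side of HPCAL1, ODC1, the first enzyme of polyamine synthesis, fell by 0.56 at 3 days (adjusted p = 0.018). Beside NCS1, GPR107 at 32.2 kb differed by −0.08 at 3 days, and ASS1, an enzyme of arginine synthesis at 207.7 kb, rose by 1.92 ± 0.16 at 3 days and by 2.24 ± 0.16 at 24 hours (adjusted p = 1.3e-06 and 4.3e-05). Beside VSNL1, SMC6 at 6.8 kb fell by 0.44 at 3 days (adjusted p = 0.0017), and the other side is DDX1 at 1904.8 kb (−0.25, adjusted p = 0.042). Beside NCALD, neither ZNF706 at 480.3 kb nor RRM2B at 79.6 kb passed at 3 days (−0.00 and −0.13), and RRM2B, a subunit of ribonucleotide reductase, rose by 0.73 at 12 days (adjusted p = 0.00024).

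Among the 5 genes whose log2 CPM followed that of HPCAL4 most closely over the 9 libraries of the first table were LRRC4B, NGFR, CACNA1G and ISM2, each with a Pearson r of 0.999. The points share the same libraries and 3 groups, and 1198 tested genes had an r over 0.95. Over the 9 libraries of the second table, which did not choose them, r was 0.93 for LRRC4B, 0.97 for NGFR, 0.91 for CACNA1G and 0.98 for ISM2. How many other genes reached such an r there was not counted, so these values do not set the 4 genes apart. By Spearman in place of Pearson, 1 of the 5 remained among the closest 5. NGFR, the low-affinity neurotrophin receptor, was as near to silence in controls as HPCAL4, with 0.0956, 0.125 and 0.118 CPM at 3 days. It reached 14.5, 13.6 and 16.4 CPM with SP at 3 days and 6.01, 3.99 and 11.3 CPM at 12 days, with replicate 3 again the highest of the 12-day libraries. ISM2 went from 6 reads to 148 at 3 days and from 12 to 217 at 24 hours. LRRC4B and CACNA1G (a T-type calcium channel) started from 4.90 ± 0.154 and 21.2 ± 0.629 CPM in the 3-day controls. At 24 hours LRRC4B and CACNA1G rose by 3.57 and 2.65 on the log2 scale (adjusted p = 0.00016 and 0.0016). For NGFR and ISM2 the log2 differences were 6.53 and 3.58, with no p given, since their 24-hour control libraries all lay under the filter's minimum. NGFR and CACNA1G share 924 bp and 309 bp of exon with a gene on the opposite strand.

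**Figure D4:**
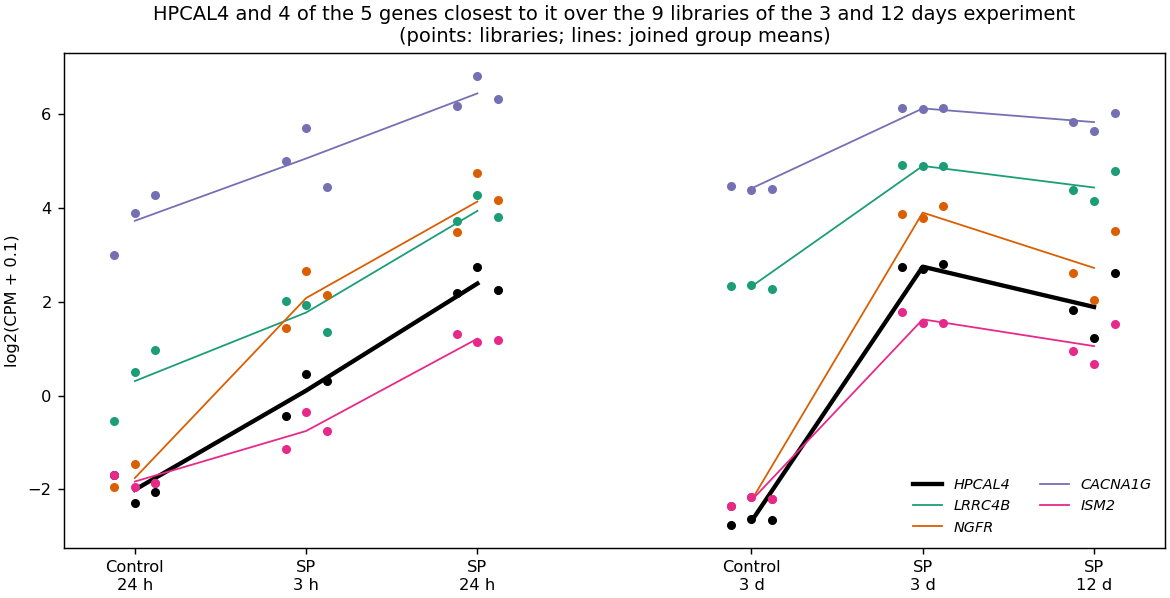
log2(CPM + 0.1) of HPCAL4 (black) and 4 of the 5 genes closest to it over the first table, as points for single libraries and lines that join group means within a table. All 5 step up between control and SP at 3 days and lie lower on average at 12 days, and in the second table they are higher at 24 hours than at 3 hours.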

How the data were processed

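RNA-seq of 18 A549 libraries (3 per group) was used as deposited: 2 tables of raw counts per Ensembl gene. Per the labels, the authors used the NEBNext Ultra kit, STAR 2.7.9a, GRCh38 and featureCounts. Strand use and multi-mapped reads are not given in the sources used here. The 6 genes and the lists were chosen with earlier results of these data known.

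Counts were analysed with edgeR 4.0.16 in R 4.3.3: filterByExpr (minimum count 10) kept 17775 and 17377 genes, TMM scaled libraries, and 1 robust quasi-likelihood fit per table used all 9 libraries and a group term. The authors tested with DESeq2, and DESeq2 1.42.0 was run here as an alternative, as were DESeq2 size factors, no filter, only the 2 groups compared, a replicate block and leaving out each library. The fit was tested on simulated data. SE is the log2 fold change over the root of F. Read ratios carry exact 95% intervals for counting error only.

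Same-numbered SP and control 24-hour libraries deviated together for replicates 1 and 3 (r = 0.50 and 0.50), and the labels give no pairing. SP 24 hours replicate 2 was as close to control replicate 3 as to control replicate 2 (r = 0.17 for both). Other comparisons had at least 1 same-numbered pair under 0.1. Differently numbered libraries also deviated together. For SP 3 hours replicate 3 with Control 24 hours replicate 1, r was 0.58. For SP 3 hours replicate 2 with Control 24 hours replicate 3, it was 0.52. Pairing by number is therefore not shown. Positions, lengths and neighbours came from GENCODE 44. Genes named were the 6, up to 4 called genes per list with the largest change at 3 days or 24 hours, the nearest tested gene on each side, and the 5 closest to HPCAL4, of which 1 is not reported here, nor is 1 marker gene.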

Additional observations from a re-analysis of the deposited data

Results flagged for a closer look

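Among the 6 genes, 2 differed between lengths of SP treatment by the direct comparison of SP at 24 and at 3 hours. HPCAL4 was 2.30 higher on the log2 scale (edgeR adjusted p = 0.000969) and HPCA 1.75 higher (adjusted p = 0.00516), with every 24-hour library above every 3-hour one for both. HPCA passed the low-count filter only through the 24-hour SP libraries, and HPCAL4 only through SP libraries. With no filter the adjusted p was 0.00449 for HPCA and 4.12e-10 for HPCAL4.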

How the results depend on the processing

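HPCAL4 and HPCA kept their direction and call at 24 hours, and HPCAL4 at 3 hours, under every alternative run: DESeq2, its size factors, no filter, only the 2 groups, the replicate block and leaving out each library. Their log2 rises then ran from 4.86 to 5.30 and from 2.103 to 2.52 at 24 hours, and from 2.58 to 3.00 for HPCAL4 at 3 hours. All of these runs but the one with no filter used the low-count filter. In the main fit both genes passed it only through SP libraries. At 3 days the HPCAL4 difference was 6.90 by DESeq2 and 6.60 without Control 3 days replicate 1. HPCAL1 and NCS1 kept theirs at 3 and 12 days.

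The count of 2 genes past the threshold at 3 hours was 1 without the filter and 1 with only the 2 groups, and 1 to 2 when a library was left out. The count of 0 between 12 and 3 days was 1 without the filter (NCS1, adjusted p = 0.0135) and 0 to 2 when a library was left out, with 2 without SP 12 days replicate 3 (NCS1 and NCALD, the latter at −0.25, adjusted p = 0.0453). At 3 days NCALD passed with only the 2 groups (adjusted p = 0.0324) and without SP 12 days replicate 3 (0.0277).

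Where no call was made, some small differences changed sign. Leaving out 1 library at a time gave −0.0949 to 0.344 for HPCA at 12 days (lowest without Control 3 days replicate 3) and −0.0341 to 0.307 for NCALD at 12 days (lowest without SP 12 days replicate 3). From 3 to 12 days of SP it gave −0.0800 to 0.0302 for HPCAL1 and −0.25 to 0.0902 for NCALD, which was 0.00247 without the filter. For NCS1 it gave −0.161 to 0.000267 at 3 hours, −0.117 to 0.0462 at 24 hours and −0.00312 to 0.121 from 3 to 24 hours. The cause was not tested.

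With the replicate number as a block, HPCAL1 at 3 hours was 0.42 (adjusted p = 0.0582) and NCALD at 3 hours 0.73 (adjusted p = 0.00997), where the numbers did not pair the libraries (r = −0.09, −0.03 and −0.59). At 24 hours same-numbered libraries deviated together for replicates 1 and 3 and not clearly for replicate 2, which does not show a pairing. There the block gave 3 members in place of 2 (NCALD added). It changed no other call among the 6 genes at an adjusted p of 0.05. Over all genes, the stricter threshold called 119 at 24 hours, 1192 by DESeq2 and 1131 without the filter, and 5 between 24 and 3 hours, 656 by DESeq2.

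The lists were put through the same alternatives, chosen after seeing the data. The 13 higher EF-hand genes at 3 days ranged from 11 to 15 and the 3 lower from 0 to 3, and at 24 hours the 6 higher ranged from 5 to 7 and the 1 lower from 0 to 3. Of the 5 genes closest to HPCAL4, 1 remained by Spearman and 3 with a prior count of 0.5. Depth limits VSNL1 and the HPCAL4 controls, at 0 to 5 reads a library, and HPCA, at 2 to 47 reads.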
